A study of Mus musculus with 6 samples.

Results

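The zona pellucida genes Zp1, Zp2 and Zp3 and the genes of 5 oocyte transcription regulators were followed across mouse ovary RNA-seq libraries. The regulators are FIGLA, NOBOX, LHX8, SOHLH1 and TAF4B. All 8 genes were taken from the deposited gene tables by NCBI Gene ID, where they are 8 of 45679 genes with a symbol. The ovaries came from wild type BDF1 mice, a hybrid laboratory strain, and the libraries carry 3 labels with 2 libraries each. Mice aged 8 weeks received PBS (young PBS), mice aged 65 weeks received PBS (old PBS), and mice aged 65 weeks received MIT-001 (old MIT-001), a compound that acts in mitochondria and removes reactive oxygen species. Injections were intraperitoneal over 7 days, at 0.5 mg/kg in the labels' protocol. The study used 20 young and 40 old mice, and no label ties a library to particular animals or to a number of them. The p-values therefore measure only the spread between these libraries, which may be technical.

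The zona pellucida is the glycoprotein coat that a growing oocyte lays down around itself. In the mouse it is built of filaments of ZP2 and ZP3 that ZP1 cross-links, and ZP2 is the protein that sperm bind. FIGLA, a basic helix-loop-helix factor, pairs with the E protein encoded by Tcf3, binds E-box sequences upstream of the zona genes and is needed for their expression and for primordial follicles to form. SOHLH1 (helix-loop-helix), LHX8 (LIM homeodomain) and NOBOX (homeodomain) act in oocytes of the earliest follicles and are needed for follicles to start growing, and TAF4B is a TFIID subunit found in oocytes and also in granulosa cells.

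Promoter sequence shows what FIGLA-type factors could read at these genes, so the windows with E-boxes are printed first. RefSeq's promoter table (GRCm38.p6) held 5 of the 8 genes: Zp3, Figla, Nobox, Lhx8 and Sohlh1. The 250 bases before each start were searched on both strands for the E-box CANNTG, the NOBOX elements TAATTG and TAATTA and the LHX8 element TGATTG. Zp3 held 3 E-boxes, and Sohlh1 held 5. Both windows are printed 5′ to 3′ on the gene's strand with E-boxes in capitals: Zp3 on the plus strand at chr5:135979855-135980104 and Sohlh1 on the minus strand at chr2:25847249-25847498.
Zp3: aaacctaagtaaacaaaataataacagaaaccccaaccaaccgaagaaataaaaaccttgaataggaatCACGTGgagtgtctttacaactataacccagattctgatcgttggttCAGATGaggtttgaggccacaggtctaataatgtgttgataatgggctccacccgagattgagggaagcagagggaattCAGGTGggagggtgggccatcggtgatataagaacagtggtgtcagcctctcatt
Sohlh1: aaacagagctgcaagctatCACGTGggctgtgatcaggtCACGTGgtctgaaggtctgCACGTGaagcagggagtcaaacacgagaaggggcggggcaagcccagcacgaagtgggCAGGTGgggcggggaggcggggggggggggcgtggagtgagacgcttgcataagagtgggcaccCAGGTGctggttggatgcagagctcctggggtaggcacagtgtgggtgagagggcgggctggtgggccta

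The Zp3 E-boxes began at -181, -134 and -55 from the start (position 0), and the first of them was CACGTG. Sohlh1 held 3 copies of CACGTG, at -231, -211 and -192, and 2 of CAGGTG, at -134 and -70. CACGTG and CAGGTG are both forms of CANNTG, so these counts are of the same sites. At least 1 E-box was found in 66.2% of the 32851 windows of this length in the table, at least 3 in 12.2% and at least 5 in 1.15%. CACGTG was present in 6.02% of the windows and in 3 or more copies in 0.0609%. CAGGTG was present in 17.2% and in 2 or more copies in 2.06%. Neither form was among the motifs listed for the search, and the numbers of copies were read from the Sohlh1 window, so these shares do not test its rarity. These matches describe letters only.

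Figla and Nobox each had 2 E-boxes, shown here in 30 bases each because their windows lie inside the gene span that the deposited files give. The Figla sites (plus strand, from chr6:86017006-86017035) stand close enough for 1 stretch to hold both. The Nobox sites (minus strand) lie at chr6:43309674-43309703 and chr6:43309587-43309616.
Figla: ccacctcgcactCAGGTGcgtCAAGTGtgt
Nobox first: cagcccccacccCAGGTGtgcggtgcctcg
Nobox second: gcagactccacaCACCTGgccaccccacgg

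The Lhx8 window held none of the 4 motifs, and no window of the 5 held a NOBOX or LHX8 element. Those elements occurred in 7.17% (TAATTG), 4.84% (TAATTA) and 12.7% (TGATTG) of all windows. The map of E-box matches places the sites side by side.

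**Figure D1:**
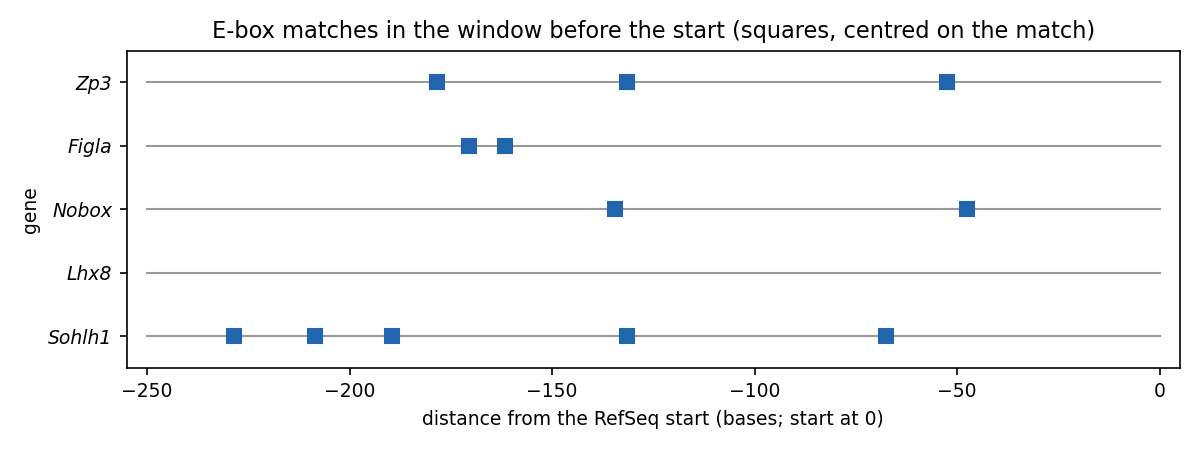
E-box matches (squares) in the 250 bases before the RefSeq start of 5 genes, with distance from the start in bases on the horizontal axis and one line per gene. Sohlh1 has 5 matches, Zp3 has 3, Figla and Nobox have 2 each and Lhx8 has none.

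The age labels have to be read with care. The 10 granulosa markers summed to 3516 and 3122 TPM in the pair labelled young PBS, 7386 and 9159 TPM in the pair labelled old PBS and 2665 and 3880 TPM in the pair labelled old MIT-001. The 10 immune markers summed to 2696 and 1901, to 179 and 234, and to 1610.3 and 677 TPM in the same order of groups. Single genes made up a large part of some sums. Inha was at 2048 and 2051, 4145 and 5098, and 1399 and 2235 TPM. Igkc was at 1340 and 174, 9.50 and 10.6, and 887 and 73.8 TPM. Ovaries are known to lose follicles and gain immune cells with age, which is the reverse of what these libraries show as labelled, so every group below is named by its label. No granulosa or immune marker was at 0 in any library, and the 5 markers of testis-type germ cells summed to at most 0.387 TPM. The ratio of deposited coverage to FPKM gave an estimate of 6.34 to 7.14 gigabases of aligned reads per library, a value at which 33.1% to 35.1% of genes stood. The part that cell makeup plays in the results below was not tested.

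Zona transcripts were the most abundant of the set. TPM, the deposited unit, is scaled for gene length and library size, so levels can be compared between genes. Zp3 and Zp2 ranked first and second in every library, with Zp2 ahead only in replicate 2 labelled young PBS. Zp1 followed, except in replicate 2 labelled old MIT-001, where Taf4b stood at 4.42 TPM and Zp1 at 4.04 TPM. On mm10, Zp1 (Gene ID 22786) lies on chromosome 19 at 10914296 to 10920601 (minus strand), Zp2 (22787) on chromosome 7 at 120126772 to 120145414 (minus strand) and Zp3 (22788) on chromosome 5 at 135980105 to 135988624 (plus strand).

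Zp3, whose product pairs with ZP2 in the filaments, stood at 69.7 and 6.87 TPM in the pair labelled young PBS. It was at 95.4 and 109 TPM in the old PBS pair and at 17.0 and 9.30 TPM in the pair labelled old MIT-001. The young PBS libraries therefore lay on either side of both MIT-001 libraries and 10.1 times apart from each other, while both old PBS libraries were above all others. In whole ovary RNA, fewer oocytes and less of these transcripts per oocyte cannot be told apart.

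Zp2 had the same order, with 61.3 and 7.69 TPM (young PBS), 90.1 and 107 TPM (old PBS) and 16.4 and 8.56 TPM (old MIT-001). Zp1, the cross-linker, was at 24.0 and 4.41 TPM, at 37.7 and 37.3 TPM and at 5.84 and 4.04 TPM. The lowest library for Zp2 and Zp3 was replicate 2 labelled young PBS, and for Zp1 it was replicate 2 labelled old MIT-001.

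**Figure D2:**
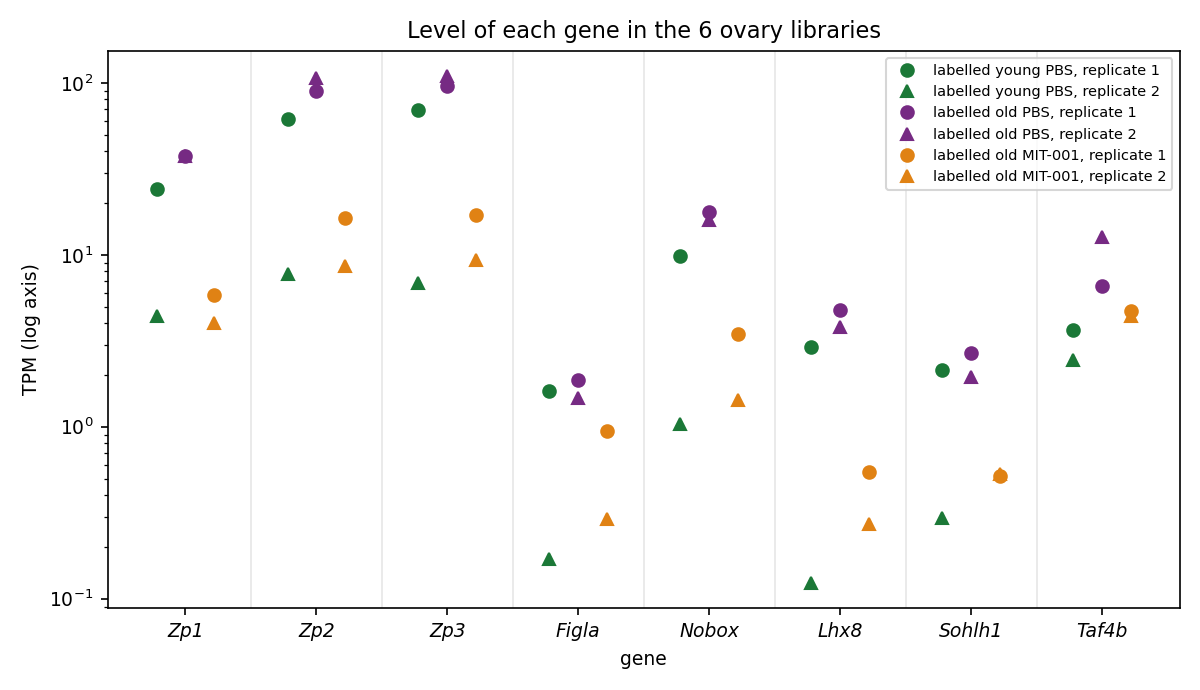
TPM of each gene (vertical axis, logarithmic) in the 6 libraries, with colour for the label and circle or triangle for replicate 1 or 2. The old PBS libraries are at the top for all genes except Figla and Sohlh1, where replicate 1 labelled young PBS lies between them, and the young PBS libraries are far apart for every gene but Taf4b.

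The makeup of the zona transcripts varied little while their sum varied widely. Summed zona TPM was 155 and 19.0 in the pair labelled young PBS, 223 and 254 in the pair labelled old PBS and 39.2 and 21.9 in the pair labelled old MIT-001. Zp2 made up 39.1% to 42.2% of that sum in the 6 libraries. Zp3 made up 42.4% to 45.0% in 5 libraries and 36.2% in replicate 2 labelled young PBS, where Zp1 reached 23.2% against 14.7% to 18.4% elsewhere. Between groups the exact two-sided permutation test of the 3 shares gave p from 0.667 to 1, where 2 against 2 libraries cannot go below 0.333.

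Nobox was the most abundant of the 4 regulators other than Taf4b. It stood at 9.89 and 1.04 TPM in the pair labelled young PBS, at 17.7 and 15.9 TPM in the old PBS pair and at 3.46 and 1.42 TPM in the pair labelled old MIT-001. Its library order was close to that of the zona genes: the old PBS libraries were highest, and replicate 2 labelled young PBS was lowest. Nobox (18291) lies on chromosome 6 at 43303674 to 43310072 (minus strand).

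Lhx8 had the widest range of the 8 genes, with a highest library 38.3 times above the lowest. Its values were 2.89 and 0.124 TPM (young PBS), 4.76 and 3.79 TPM (old PBS) and 0.542 and 0.274 TPM (old MIT-001). Lhx8 (16875) lies on chromosome 3 at 154306288 to 154330560 (minus strand).

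Figla and Sohlh1 were at 3 TPM or less throughout. Figla stood at 1.61 and 0.171 TPM (young PBS), 1.87 and 1.47 TPM (old PBS) and 0.945 and 0.291 TPM (old MIT-001), so that the young PBS and old PBS groups overlapped. Sohlh1 was at 2.14 and 0.294 TPM, at 2.67 and 1.94 TPM and at 0.515 and 0.530 TPM, and those groups also overlapped. Figla (26910) spans 86016494 to 86020996 on the plus strand of chromosome 6, and Sohlh1 (227631) spans 25842995 to 25847248 on the minus strand of chromosome 2.

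These low values rest on few reads. Deposited coverage, the mean read depth over the gene, was 0.344 for Lhx8, 0.471 for Figla and 0.706 for Sohlh1 in replicate 2 labelled young PBS. The highest coverage in any library was 3.47 for Figla and 5.96 for Sohlh1, against 314 for Zp3. All 8 genes passed the filter of at least 1 TPM in at least 2 libraries, and 5 of them passed at 5 TPM, which Figla, Lhx8 and Sohlh1 did not.

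Taf4b followed another order. It was at 3.65 and 2.46 TPM in the pair labelled young PBS, at 6.54 and 12.6 TPM in the old PBS pair and at 4.73 and 4.42 TPM in the pair labelled old MIT-001. None of these groups overlapped, with young PBS lowest and old PBS highest. Taken pair by pair, both old PBS libraries were above both young PBS libraries for 38.1% of all genes tested. Both MIT-001 libraries were below both old PBS libraries for 24.2% and above both young PBS libraries for 37.3%. The share of genes that met all of these at once was not counted. The young PBS libraries differed by 1.48 times for Taf4b and by 5.45 to 23.3 times for the other 7 genes. Replicate 2 labelled old PBS, where Taf4b was highest, was also highest for Inha at 5098 TPM and Gja1 at 2188 TPM, which granulosa cells express strongly. In the 4 libraries not labelled old PBS these genes stood at 1399 to 2235 TPM (Inha) and 427 to 820 TPM (Gja1). Being highest in that old PBS library was shared with Zp2 at 107 TPM and Zp3 at 109 TPM. Inha was lowest in replicate 1 labelled old MIT-001, and Gja1 and Taf4b in replicate 2 labelled young PBS. Hsd17b1, the next most abundant granulosa gene, ranged from 127 to 355 TPM. The only other gene that overlapped a member's span on the reference lay opposite Taf4b and was at 0 TPM in all libraries.

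**Figure D3:**
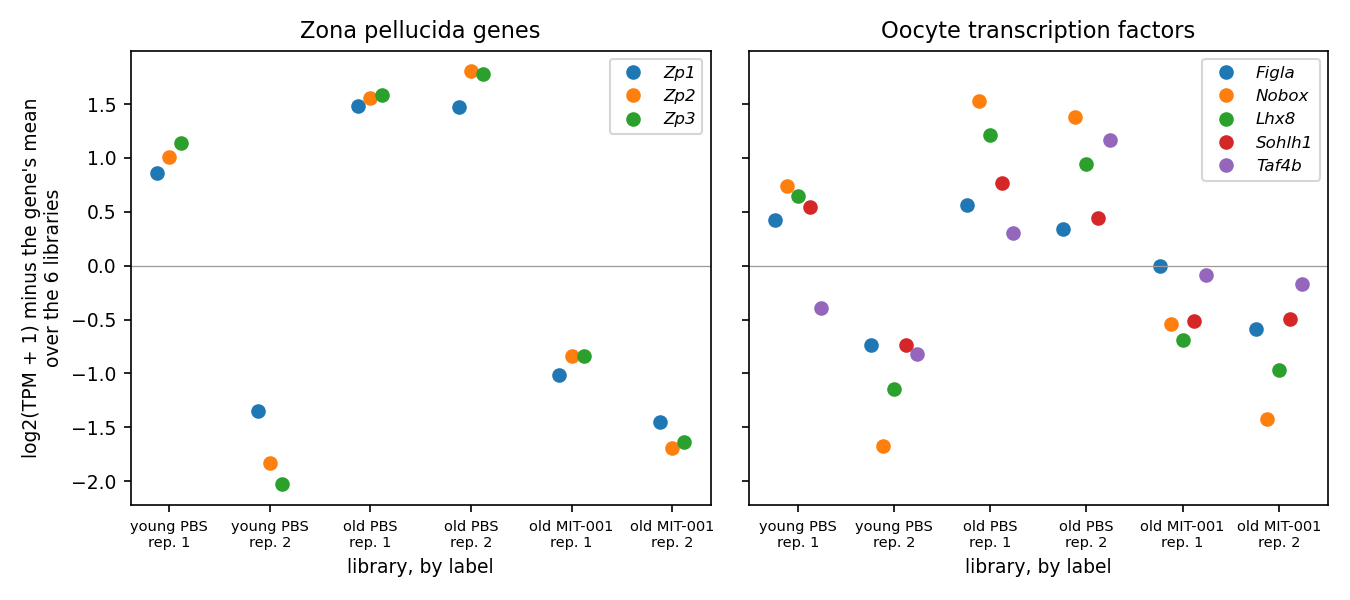
log2(TPM + 1) of each gene minus its own mean over the 6 libraries (vertical axis), for the zona genes on the left and the transcription regulators on the right, by library label. The zona points nearly coincide, Nobox and Lhx8 follow them, Figla and Sohlh1 span a smaller range on this scale, and Taf4b does not share the high value of replicate 1 labelled young PBS.

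Old PBS was first set against young PBS, the contrast of age without the compound. As labelled, all 8 genes had higher means with age, and none passed the test. A log2 fold change above 0 was found for 11213 of the 16473 genes tested. In this and the other comparisons fold changes are on the log2(TPM + 1) scale, from limma fitted to all 16473 genes tested, with ± for the standard error and p-values adjusted by Benjamini-Hochberg. The log2 fold changes were 1.73 ± 0.68 for Zp1, 2.09 ± 0.87 for Zp2 and 2.13 ± 0.96 for Zp3. They were 1.92 ± 0.78 for Nobox, 1.34 ± 0.38 for Taf4b, 1.33 ± 0.60 for Lhx8, 0.70 ± 0.47 for Sohlh1 and 0.61 ± 0.47 for Figla. In TPM, Zp3 averaged 102 ± 9.91 in the pair labelled old PBS and 38.3 ± 44.4 in the pair labelled young PBS (SD, n = 2 each), a ratio of 2.68.

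The test left 0 of 8 members past an adjusted p of 0.05 (limma adjusted p 0.224 for Taf4b to 0.534 for Figla), with 0.0364% of all genes called. At an unadjusted p below 0.05 it had 3 members higher (Zp1, Nobox and Taf4b), against 14.6% of all genes. Both old PBS libraries were above both young PBS libraries for 6 members, all but Figla and Sohlh1, and for 38.1% of all genes. The median log2 fold change of the members was 1.53 and that of all genes 0.23, which centring each library on its median moved to -0.09. All genes at an unadjusted p below 0.05 split into 2404 higher and 584 lower, and into 738 and 1298 after centring, when 1 member (Taf4b) was among them.

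The size of this difference depended on which young PBS library was kept. Without replicate 2 labelled young PBS, the fold changes of the zona genes were 0.55 to 0.67, those of Figla and Sohlh1 0.03 and 0.06, and that of Taf4b 1.13. Without replicate 1 they were 2.83 for Zp1, 3.51 for Zp2, 3.71 for Zp3, 3.13 for Nobox and 2.22 for Lhx8, and these 5 genes passed (limma adjusted p 0.0367 to 0.0428), where 3.97% of all genes were called higher. That fit holds 1 young PBS library, which is assumed to vary like the libraries of the other groups.

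Old MIT-001 was then set against old PBS, the contrast of compound at the same age. Here all 8 genes were lower in both MIT-001 libraries than in either old PBS library, as were 24.2% of all genes. Mean TPM was 7.59 times lower for Zp1, 7.91 times for Zp2, 7.79 times for Zp3, 6.90 times for Nobox and 10.5 times for Lhx8. It was 4.41 times lower for Sohlh1, 2.70 times for Figla and 2.10 times for Taf4b. The log2(TPM + 1) scale understates the fold of genes near 1 TPM, so Lhx8 has a wider ratio than the zona genes in TPM and a smaller fold change on that scale.

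The log2 fold changes were -2.71 ± 0.68 for Zp1, -2.95 ± 0.87 for Zp2, -2.92 ± 0.96 for Zp3, -2.44 ± 0.78 for Nobox and -1.90 ± 0.60 for Lhx8. For Sohlh1, Taf4b and Figla they were -1.11 ± 0.47, -0.86 ± 0.38 and -0.75 ± 0.47. Among all genes, Zp2 had the 11th, Zp3 the 13th and Zp1 the 21st most negative value. In the fit to all libraries, 0 of 8 members passed (limma adjusted p 0.224 to 0.647), with 0.0182% of all genes called. At an unadjusted p below 0.05 there were 5 members lower (the zona genes, Nobox and Lhx8), against 4.36% of all genes. The members' median was -2.17, and that of all genes 0.03.

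The call for this pair of groups turned on the young PBS libraries, which are in neither group but add their spread to the fit. When only the 4 libraries compared were fitted, Zp1, Zp2, Zp3 and Nobox were lower at limma adjusted p from 0.0322 to 0.0491, and 0.941% of all genes were called lower. Without replicate 1 labelled young PBS the same 4 passed, and without replicate 2 Lhx8 passed as well. Leaving out any 1 library of the groups compared, with all others fitted, left 0 members past the test.

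Old MIT-001 was last set against young PBS, the contrast of treated old with untreated young ovaries. Negative log2 fold changes were found for 5050 of the 16473 genes tested. Of the 8 members, 7 had negative log2 fold changes, from -0.14 ± 0.47 for Figla to -0.99 ± 0.68 for Zp1, and Taf4b had 0.47 ± 0.38. None passed (limma adjusted p 0.527 to 0.926), and 0% of all genes were called, although 2820 genes were higher and 134 lower at an unadjusted p below 0.05, none of them a member. That split was 1037 higher and 1311 lower after centring, and 1319 and 759 after quantile normalization, when Zp1 was among the lower. Without replicate 1 labelled young PBS the fold changes of those 7 members were all above 0, and the members' median was 0.50 in place of -0.55. The groups overlapped for 7 members. Taf4b alone was higher in both, as were 37.3% of all genes, and no member was lower in both, against 6.56% of all genes. These 3 comparisons share libraries, so their fold changes are not independent of each other.

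**Figure D4:**
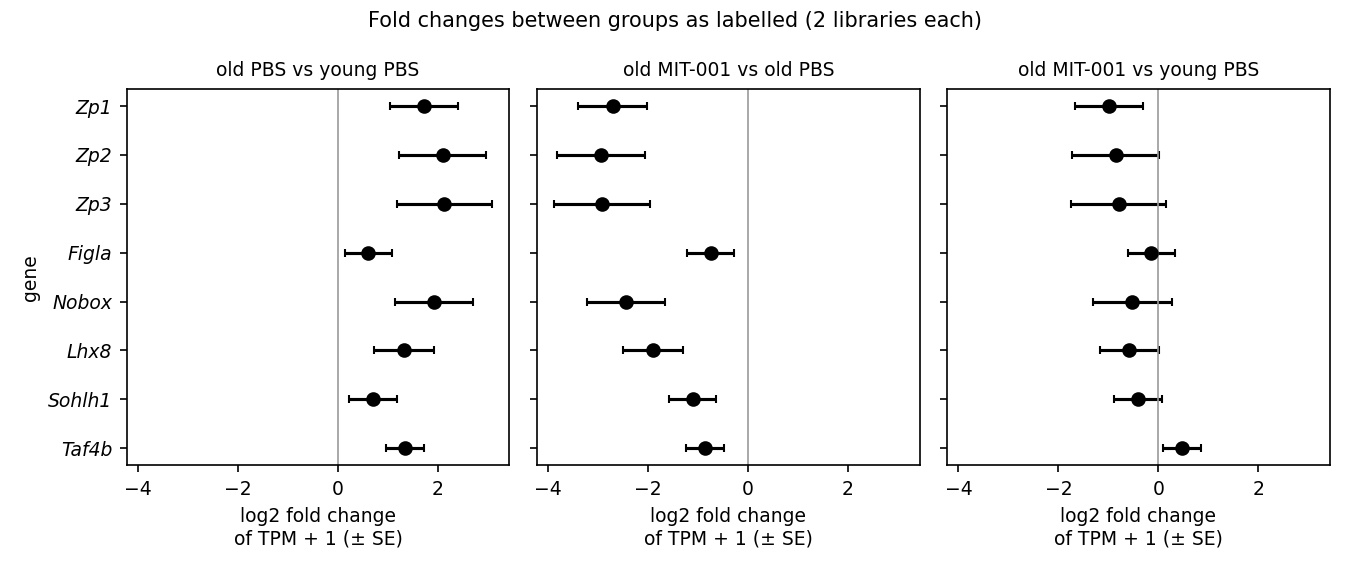
log2 fold change of TPM + 1 (horizontal axis, bars are the standard error from limma) for each gene in the 3 comparisons of groups as labelled. All points lie right of 0 for old PBS against young PBS and left of 0 for old MIT-001 against old PBS, and in the comparison of old MIT-001 with young PBS only Taf4b lies to the right.

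The sum of 4 regulators, of which Nobox was the largest part, varied less relative to the zona genes than Taf4b did. Figla, Nobox, Lhx8 and Sohlh1 together came to 10.7% and 8.56% of summed zona TPM in the pair labelled young PBS, 12.1% and 9.12% in the pair labelled old PBS and 13.9% and 11.5% in the pair labelled old MIT-001. Taf4b came to 2.36% and 13.0%, 2.93% and 4.98%, and 12.1% and 20.2% in the same order. Taf4b was thus higher relative to zona genes in both MIT-001 libraries than in either old PBS library, and the sum of the 4 other regulators overlapped between those groups. In that comparison Zp2, Zp3 and Zp1 had the 11th, 13th and 21st most negative fold changes of 16473 genes. Any gene that fell less than they did rises relative to them, and the share of all genes that did so was not counted. Taken singly, Sohlh1 was at 3.03% and 5.70% of Zp3 in the MIT-001 pair, above the 2.80% and 1.77% of the old PBS pair. Lhx8 was lower, at 3.19% and 2.95% against 4.98% and 3.46%. Nobox overlapped, at 20.4% and 15.3% against 18.6% and 14.6%.

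Figla stood at 5.56% and 3.13% of Zp3 in the pair labelled old MIT-001, above the 1.35% to 2.49% of the other 4 libraries. Zp3 had the 13th most negative fold change of 16473 genes in MIT-001 against old PBS. Figla and Sohlh1 fell less than Zp3, which by itself raises their percentage of it, and the share of all genes that did so was not counted. The MIT-001 values rest on a Figla coverage of 1.69 and 0.704. On the log2(TPM + 1) scale the mean of the 5 regulators minus that of the zona genes was -3.45 and -2.13 (young PBS), -3.51 and -3.67 (old PBS) and -2.32 and -1.98 (old MIT-001). The difference of 1.45 between MIT-001 and old PBS had an exact permutation p of 0.333, two-sided, the smallest that 2 against 2 libraries allow, and with a pseudocount of 0.1 it was 0.92. Those of -0.80 for old PBS and 0.64 for MIT-001 against young PBS had exact p of 0.333 and 0.667 (differences of -0.27 and 0.64 with a pseudocount of 0.1), and all 12 such tests, zona shares included, had an adjusted p of 1. The -0.80 was -0.14 without replicate 2 labelled young PBS and -1.47 without replicate 1, and the 0.64 was 1.31 and -0.0189.

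**Figure D5:**
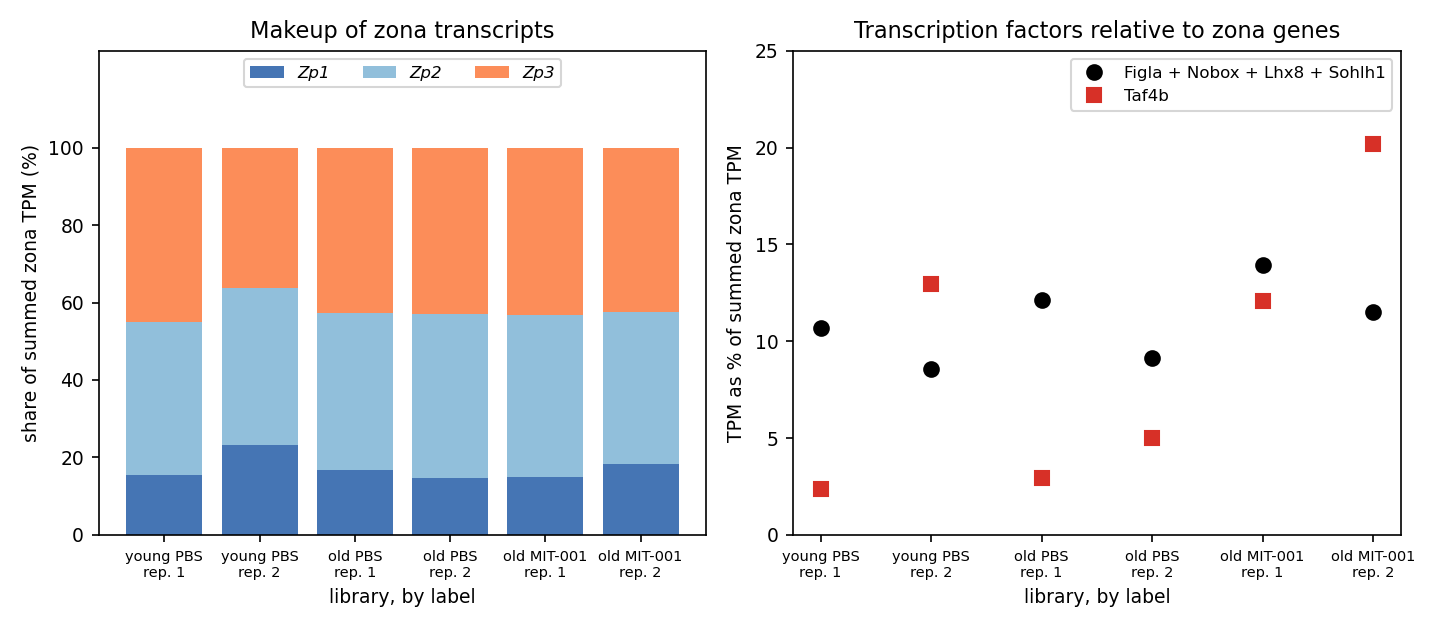
Left, the share of Zp1, Zp2 and Zp3 in their summed TPM (stacked bars, in percent) by library. Right, the summed TPM of Figla, Nobox, Lhx8 and Sohlh1 (circles) and that of Taf4b (squares) as a percentage of summed zona TPM, where the circles stay between 8.56% and 13.9% and the squares run from 2.36% to 20.2%.

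Genes tied to the zona and the egg surface were given by a list of 8, of which 7 were tested. In the comparison of old PBS with young PBS 0 passed, with 6 higher and 1 lower (median 1.5), and in that of MIT-001 with old PBS 0 passed, with 1 higher and 6 lower (median -1.88). Of all 16473 genes tested, 11213 were higher in the first of these comparisons and 7659 lower in the second. Oosp1, an oocyte-secreted protein gene, was at 18.4 and 1.69 TPM (young PBS), 26.9 and 24.1 TPM (old PBS) and 6.53 and 2.39 TPM (old MIT-001), with both old PBS libraries highest, as for the zona genes. Cd9 and Cd81, tetraspanins needed on the egg for sperm fusion but made by many cell types, did not have both old PBS libraries highest. Cd9 was at 112 and 47.6, 74.8 and 72.0, and 137 and 102 TPM, and Cd81 ranged from 573 to 994 TPM. The pseudogene Zp4-ps was at 0 in 4 libraries and at most 0.292 TPM.

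Of 18 partners and network genes of the regulators, 14 were tested and 0 passed in any comparison. Their medians were 0.33 for old PBS against young PBS, -0.06 for MIT-001 against old PBS and 0.18 for MIT-001 against young PBS; those of all genes were 0.23, 0.03 and 0.24. The 3 most abundant, Dynll1, Stat3 and the FIGLA partner gene Tcf3, had log2 fold changes between -0.21 and 0.29 in the 3 comparisons. The oocyte homeobox genes of the list, named here after their values were seen, had larger differences. Obox5 had 2.02 for old PBS against young PBS and -2.71 for MIT-001 against old PBS, Obox1 had 1.93 and -2.40, and Obox2 had 1.54 and -1.79. Tcf3 stood at 52.6 to 70.1 TPM in the 6 libraries, so transcripts of this partner were present in every library. Sohlh2, the partner of SOHLH1, was at most 0.458 TPM and was not tested.

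Of 8 oocyte genes known to be reduced in ovaries without Nobox, all were tested and 0 passed the adjusted threshold. Fgf8 passed the filter on low values through the old PBS libraries alone, so its direction was set by the filter and it is left out of the counts. The other 7 were higher in both old PBS libraries than in both young PBS libraries, as were 38.1% of all genes, and 5 of them had an unadjusted p below 0.05, against 14.6% of all genes (median log2 fold change 2.01). The same 7 were lower in both MIT-001 libraries than in both old PBS libraries, against 24.2% of all genes, and 7 had an unadjusted p below 0.05, against 4.36% (median -2.77). Gdf9, which encodes a growth factor that the oocyte sends to granulosa cells, stood at 73.3 and 9.51, 116 and 108, and 22.8 and 9.35 TPM. The linker histone gene H1f8 was at 36.9 and 3.20, 59.3 and 48.9, and 8.28 and 4.39 TPM, and the maternal gene Zar1 at 24.5 and 2.34, 39.0 and 41.2, and 5.72 and 3.98 TPM.

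In a list of 12 germ cell genes 0 passed the adjusted threshold, and Dazl is left out of the counts because it, too, passed the filter through the old PBS libraries alone. The other 11 were higher in both old PBS libraries than in both young PBS libraries (median 1.89), against 38.1% of all genes. They were lower in both MIT-001 libraries than in both old PBS libraries (median -2.52), against 24.2% of all genes. Uchl1 was at 101 and 23.8 TPM (young PBS), 112 and 131 TPM (old PBS) and 31.4 and 54.6 TPM (old MIT-001). Padi6 was at 129 and 141 TPM (old PBS) and 20.7 and 11.4 TPM (old MIT-001). Tle6, a maternal complex gene, differed less between libraries, from 31.9 to 99.2 TPM.

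Markers of other cells differed between the groups too. The granulosa list had 10 of 10 genes higher in old PBS than in young PBS (median 1.32) and 9 of 10 lower in MIT-001 than in old PBS (median -1.38), with 0 past the adjusted threshold. The immune list was lower in 10 of 10 genes (median -2.58, 2 passed) and then higher in 10 of 10 (median 1.39, 1 passed). Among all 16473 genes tested, 11213 were higher and 5259 lower in old PBS than in young PBS, with 0.0364% called. In MIT-001 against old PBS 8812 were higher and 7659 lower, with 0.0182% called. The 6 surface epithelium genes had medians of -1.05 and 2.08 in those comparisons (0 and 1 passed), and summed to 245 and 350, 163 and 157, and 608 and 647 TPM by group. Oviduct and ciliated genes summed to 98.8 and 152, 32.5 and 35.2, and 698 and 421 TPM, and stromal genes to 805 and 1005, 705 and 744, and 1569 and 1165 TPM. In the pair labelled old MIT-001, Ovgp1 was at 567 and 215 TPM and Epcam at 101 and 94.2 TPM. Foxj1 was at 0.867 and 67.0 TPM there, so it was high in replicate 2 only. Theca and luteal genes were higher for 5 of 6 in the first comparison (median 0.80) and lower for 6 of 6 in the next. The 3 most abundant genes of each list were Cd74, Igkc and C1qa (immune), Krt8, Upk3b and Krt18 (surface epithelium), Ovgp1, Epcam and Foxj1 (oviduct and ciliated), Dcn, Col1a1 and Lum (stroma), Cyp11a1, Hsd3b1 and Star (theca and luteal) and Izumo1, Prm2 and Prm1 (testis-type germ cells). The part these cells play in the members' levels was not tested.

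The genes whose centred levels lay nearest to the mean of the 3 zona genes over the 6 libraries, out of 11327 genes with a mean of at least 5 TPM, were Padi6, Oas1e, Zar1, Fbxw18 and Fbxw19. Their root mean square differences were 0.103 to 0.156 on the log2(TPM + 1) scale. Those of the zona genes themselves were 0.078 to 0.205, but each zona gene is part of that mean, which brings it nearer by construction. The regulators were at 0.230 for Nobox, 0.513 for Lhx8, 0.886 for Sohlh1, 0.993 for Figla and 1.10 for Taf4b. This distance also grows where a gene spans a smaller range than the zona genes. Pearson's r with the zona mean over the 6 libraries was 0.993, 0.992, 0.967, 0.941 and 0.708 in the same order. Padi6 stood at 76.4 and 10.2 TPM in the pair labelled young PBS, the first above the second as for Zp3, by 7.46 and 10.1 times.

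Nearest to Figla were Adck5, Cables2, Pex10, Ccdc28b and Klhl8 (0.110 to 0.142), and nearest to Sohlh1 were Lmo1, Pttg1, Psrc1, Serpina3a and Ube2t (0.102 to 0.184). Figla and Sohlh1 are near 1 TPM, where this scale shrinks a fold, and genes with a smaller fold at higher levels, such as Adck5 at 49.4 to 105 TPM, came nearest. Pearson's r over the 6 libraries was 0.960 to 0.999 for these 15 genes, as a description of genes chosen for likeness.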

How the data were processed

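TRIzol extraction and a SMARTER mRNA-Seq kit are named in the labels' protocols, and Trimmomatic, HISAT2, StringTie and mm10 in the submitters' processing notes. No source used here gives their versions, the annotation or the strand setting. A library's table had 45781 or 45782 rows. The TPM values, as deposited, are scaled for length and sum to 1000000. The FPKM values, also deposited (TPM was 1.89 to 2.31 times FPKM), served as an alternative. Coverage, as deposited by the authors, is mean read depth over a gene. No read counts were used, and no count model was applied.

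Symbols came from a RefSeq table (GRCm38.p6) matched on Gene ID, leaving 98 rows per library unmatched. Genes with at least 1 TPM in at least 2 libraries were tested as log2(TPM + 1) with limma 3.58.1 (R 4.3.3), with 1 mean per group over all 6 libraries and an intensity trend (residual degrees of freedom 3, prior 3.12). Two-sided tests were called at an adjusted p below 0.05. The procedure was run on simulated data with independent noise for each gene. That setting lacks the differences between replicates that most members share.

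The members and the 4 pathway and 7 marker lists (46 and 47 genes) were chosen with earlier results of these data known. All members are named, with the 3 most abundant genes of each list, and the 5 genes nearest in pattern to the zona mean, Figla and Sohlh1, leaving out clone names. Sohlh2, Zp4-ps, Fgf8, Dazl and Obox genes were named after their values were seen. Alternatives were another pseudocount, filter, unit, scaling and trend, only the 4 libraries compared, the replicate block, and each library left out.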

Additional observations from a re-analysis of the deposited data

How the results depend on the processing

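Over 117 alternative values per comparison, the members' fold changes kept their sign in all of old PBS against young PBS (5 newly past the threshold) and in all of old MIT-001 against old PBS (13 newly past). In old MIT-001 against young PBS 9 changed sign. Of those, 7 came without replicate 1 labelled young PBS, while the lowest values came without replicate 2. Between these the range was -2.09 to 0.12 for Zp1, -2.27 to 0.57 for Zp2, -2.38 to 0.79 for Zp3, -0.72 to 0.44 for Figla, -1.73 to 0.69 for Nobox, -1.47 to 0.32 for Lhx8 and -1.04 to 0.24 for Sohlh1. Figla was at 0.16 without replicate 2 labelled old MIT-001, and Taf4b at -0.0355 after quantile normalization.

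Leaving out single libraries, members called ranged from 0 to 5 in the first and in the second comparison, their median from 0.58 to 2.53 in old PBS against young PBS and from -1.60 to 0.50 in old MIT-001 against young PBS, and the regulators minus the zona genes in the last from -0.0189 to 1.31. All genes called ranged from 0 to 948 and from 0 to 372. For old PBS against young PBS, 6 genes were called as reported, 1 with no filter, without the trend or with the replicate block, 15 after centring, 17 after quantile normalization and 0 with only the 4 libraries compared. For old MIT-001 against old PBS, 3 were called as reported, 0 with no filter or the block, 1 with FPKM or centring and 356 with 4 libraries, when 4 members passed. The members' median in that comparison was -2.89 with a pseudocount of 0.1, -2.71 at a filter of 5 TPM (5 members) and -1.66 with FPKM. The cause was not tested.

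The labels number replicates 1 and 2 in each group without saying that a number marks shared animals or a batch. The numbers were not taken as pairs. Deviations of same-numbered libraries correlated at 0.0066, 0.24 and 0.18 between groups, which with 2 libraries a group cannot exclude a shared batch. With the replicate block no member passed. In old PBS against young PBS it took the members higher at an unadjusted limma p below 0.05 from 3 to 6, and all such genes from 2404 to 2248. In old MIT-001 against old PBS, members lower went from 5 to 6, and all such genes stayed at 719. Read depth limits Figla, Lhx8 and Sohlh1, whose coverage was under 1 in replicate 2 labelled young PBS and in replicate 2 labelled old MIT-001.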
